A study of Homo sapiens with 6 samples.

Results

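The genes described here are 46 human genes that carry proteins between the endoplasmic reticulum (ER) and the Golgi apparatus. They were chosen by name and role, and their rows were found through the Ensembl identifiers of the deposited count table, which lists 64299 genes. The set holds 15 genes of the COPII coat and its exit-site organisers, 15 cargo receptors and p24 (TMED) proteins, 5 SNAREs and tethers, 8 subunits of the COPI coat and 3 KDEL receptors. All 46 were found, and all 46 were among the 16243 genes that passed a filter on low counts and entered the test.

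RNA was measured by poly(A) RNA sequencing in HEK293T, a human line derived from embryonic kidney that takes up plasmids readily. The ERbeta group comprised 3 libraries from cells transfected with a plasmid labelled ERbeta or ER-β. The EV_Ctrl group comprised 3 libraries from cells given an empty vector with the same reagent, so every library comes from transfected cells and an effect of transfection itself was not measured. What ER-β stands for is not spelled out in the labels. It is read here, from knowledge of the study, as a designed β-sheet protein that is sent to the ER, not as estrogen receptor beta, and its own level was not analysed here. The share of cells that held a plasmid is not given in the sources used here, and in bulk RNA fewer responding cells and a smaller response per cell cannot be told apart.

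Proteins that leave the ER are gathered at exit sites, where the GTPase SAR1 recruits the COPII coat and cargo receptors link lumenal cargo to it. COPI vesicles carry escaped ER proteins and the receptors themselves back, and the KDEL receptors catch soluble ER residents by their C-terminal tail. Several genes of this machinery are known targets of XBP1 and ATF6, transcription factors of the unfolded protein response, the programme that cells start when unfolded proteins gather in the ER.

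Libraries of 1 group were not alike. Total counts were 16531368, 15821501 and 13149304 in ERbeta 1, 2 and 3, against 6833442, 27101644 and 10806375 in EV_Ctrl 1, 2 and 3. Levels are given in CPM, the count scaled to a common library total. The leading principal component of their log2 values (68.1% of the variance) placed the ERbeta libraries between -36.6 and -12.1, EV_Ctrl 2 at -13.3 and EV_Ctrl 1 and 3 at 38.8 and 37.8. Transcripts with a GC content under 40% followed the same split, with median log2 levels relative to the gene's mean of 0.186, 0.138 and 0.426 in ERbeta 1, 2 and 3, against -0.437, 0.126 and -0.378 in the 3 controls in the same order. Values against EV_Ctrl 2 alone and values corrected for GC content are therefore given beside most of the larger differences. All 7 HEK293 lineage markers were detected, with a summed level of 1770.1 to 1869 CPM in ERbeta and 1796 to 1993 CPM in EV_Ctrl. The blood cell markers CD3E and HBB had 0 reads in every library. The 3 hepatocyte markers had 16 reads in all in ERbeta and 3 in EV_Ctrl, with APOA2 at 0, and the 3 fibroblast markers summed to 15.4 to 23.0 CPM in ERbeta and 20.3 to 35.3 CPM in EV_Ctrl.

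The promoters of 8 of the genes held a UPRE, the sequence TGACGTGG through which XBP1 and ATF6 are known to act. The sites are shown here, and the log2 fold changes of the genes they lie beside are given below. The sites come from RefSeq promoter windows on GRCh38.p14, which run from 250 bases before to 50 bases after a transcription start. Each run of 30 bases reads 5′ to 3′ on the strand of the gene, and the capitals mark the UPRE, written as CCACGTCA where it lies on the opposite strand.
COPA: gagagggtcgcTGACGTGGaggcgtccgaa
COPB1: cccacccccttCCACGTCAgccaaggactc
COPB2, upstream site: gctcagcggcaCCACGTCAcggcccttagt
COPB2, downstream site: tcccggaagttCCACGTCAgtcagtctgac
KDELR3: ggccgccctggCCACGTCAccgcccggcca
SEC16A: tggccctggtgCCACGTCAgccggactgaa
SEC23A: tcccctcctctTGACGTGGcagaggcggcg
SEC24A: gtgagagtcggTGACGTGGcggcgaggccg
STX5: ttacgtgtaggTGACGTGGccgcttccagt

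The COPB1 run lies at chr11:14499841-14499870 (minus strand), with the UPRE 48 bases before the start. The COPB2 runs lie at chr3:139389825-139389854 and chr3:139389632-139389661 (minus strand), with a UPRE 163 bases before and 31 bases after the start. KDELR3 has its run at chr22:38468039-38468068 (plus strand), with the UPRE 46 bases before the start and outside every exon and intron of GENCODE 29. The SEC24A run lies at chr5:134648595-134648624 (plus strand), with the UPRE 179 bases before the start and inside an exon of SAR1B, the COPII gene that faces SEC24A on the minus strand. The runs of COPA (chr1:160343227-160343256), STX5 (chr11:62832049-62832078), SEC23A (chr14:39103221-39103250) and SEC16A (chr9:136484707-136484736), are all on the minus strand, and the first base of each UPRE lies within 16 bases of the start. The UPRE of COPA, COPB1, STX5 and SEC23A and the downstream one of COPB2 fall in an exon of the gene itself in GENCODE 29, that of SEC16A in an exon of C9orf163, and the upstream one of COPB2 in an exon of AC097103.2.

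A UPRE was present in 9 of the 51 windows of the 39 members that have one, against 256 of all 35116 windows, or 0.729%. Counted by gene, it was present in 8 of 39 members (20.5%), against 166 of 15843 protein-coding genes (1.05%). The ER stress elements ERSE (CCAAT, 9 bases of any kind, CCACG) and ERSE-II (ATTGG, 1 base, CCACG) were searched on both strands in the same way. ERSE was in 0 of the 39 members and 0.0769% of all windows, and ERSE-II in 0 members and 0.0541% of windows. The shorter sequence CCACG, searched after the others and contained in the reverse strand of the UPRE, was in 35 of the 39 members (89.7%) and in 50.2% of coding genes. A match is a run of letters, not evidence of binding, and no binding was measured.

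No member of the set passed the test for a difference between ERbeta and EV_Ctrl. By the quasi-likelihood test of edgeR, with Benjamini-Hochberg adjustment over all 16243 genes, 0 of 46 members and 0.0% of all genes had an adjusted p under 0.05. At an unadjusted p under 0.05, 10 members (21.7%) were higher in ERbeta, against 9.54% of all genes, and 0 were lower, against 2.88%. The groups did not overlap, with every ERbeta library above every control, in 11 members (23.9%), against 10.2% of all genes. They did not overlap in the other direction in 3 members (6.52%), against 8.48%. Those counts changed with library size in place of the TMM factors (trimmed mean of M values). They were then 9 higher (19.6%, against 7.65% of all genes) and 7 lower (15.2%, against 13.3%). Log2 fold changes are of ERbeta over EV_Ctrl. Their median over the members was 0.09, with 33 of 46 above 0, and over all genes -0.01, with 48.3% above 0. With library size only the members' median was -0.01, with 22 of 46 above 0, while the median of all genes was -0.10.

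**Figure D1:**
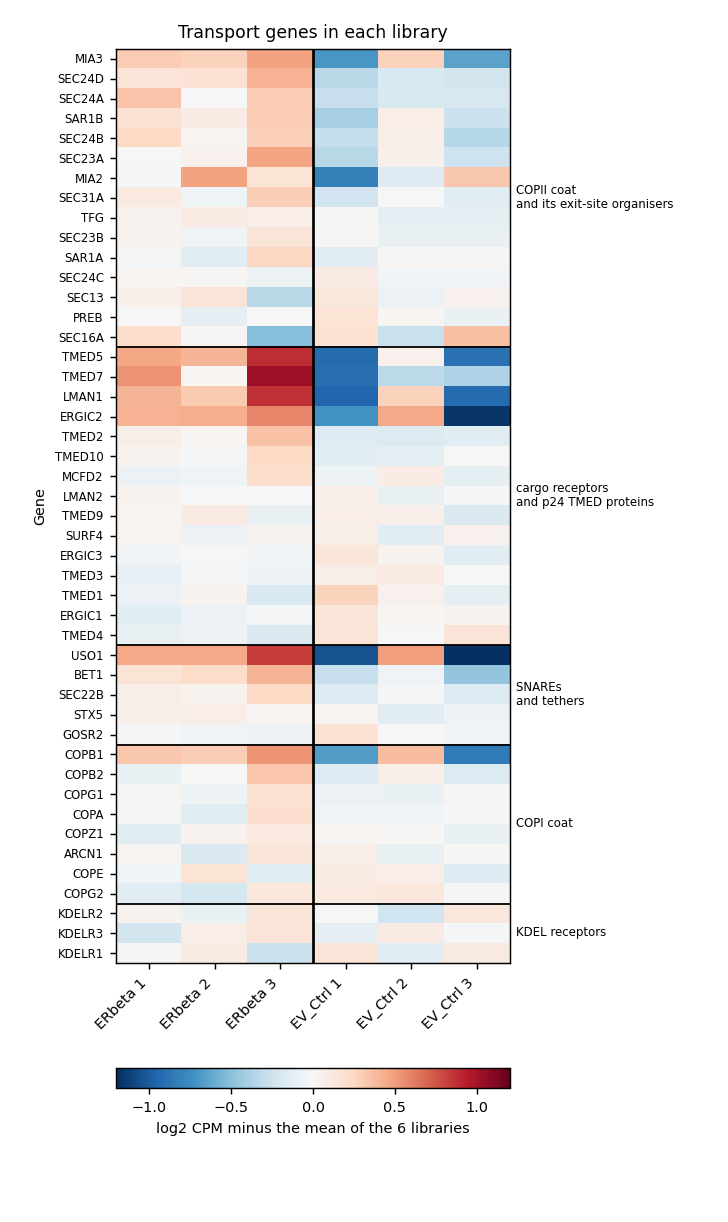
Level of each of the 46 genes in each library, as log2 CPM minus the mean of the 6 libraries (red higher, blue lower), by class and, within a class, by log2 fold change. USO1, LMAN1, COPB1, MIA3 and ERGIC2 are red in EV_Ctrl 2 as in ERbeta and blue in EV_Ctrl 1 and 3, while the COPI coat apart from COPB1 and the KDEL receptors are pale throughout.

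In the COPII coat and its organisers 5 of 15 members did not overlap between the groups and were higher in ERbeta, against 10.2% of all genes, and 0 were lower, against 8.48%. SEC24D, SEC24A, SAR1B, MIA3 and TFG were these 5. With library size only 3 were higher, without MIA3 and TFG, against 7.65% of all genes, and PREB was lower, against 13.3%. Of the 15, 11 had a positive log2 fold change (10 with library size only), and the median was 0.24, but 0.06 after GC correction. Over all genes these medians were -0.01 and 0.05. Each had an edgeR adjusted p of at least 0.397, so none passed.

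SEC24 is the COPII subunit that binds cargo signals, and its 4 paralogs prefer different signals. SEC24D was at 43.6, 44.1 and 52.4 CPM in ERbeta, against 31.2, 34.5 and 33.6 CPM in EV_Ctrl. All 3 control libraries were low and close together, and the groups did not overlap. The log2 fold change was 0.49 with a standard error (SE) of 0.12 (edgeR adjusted p = 0.397), and it was 0.44 against EV_Ctrl 2 alone and 0.51 after GC correction. SEC24A was at 90.7, 72.0 and 88.5 CPM in ERbeta, against 59.0, 63.1 and 62.7 CPM in EV_Ctrl. The controls again lay close together below the lowest ERbeta library. Its log2 fold change was 0.44 (SE 0.12), 0.41 against EV_Ctrl 2 alone but 0.05 after GC correction, and its transcript has a GC content of 39.0%, against 45.5% in SEC24D. SEC24B was at 65.6, 57.1 and 68.1 CPM in ERbeta, against 45.6, 58.4 and 43.9 CPM in EV_Ctrl. EV_Ctrl 2 lay above the lowest ERbeta library, so the groups overlapped, and the log2 fold change was 0.36 (SE 0.14), 0.13 against EV_Ctrl 2 alone and 0.27 after GC correction. SEC24C, the most GC-rich of the paralogs at 53.0%, was at a mean of 153 ± 4.76 CPM with ERbeta, against 155 ± 7.87 CPM with EV_Ctrl (SD, n = 3 each).

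SAR1B, one of the pair of SAR1 GTPases that start coat assembly, was at 74.0, 70.3 and 80.9 CPM in ERbeta, against 49.7, 69.4 and 54.9 CPM in EV_Ctrl. EV_Ctrl 2 was just below the lowest ERbeta library, and the other controls were lower still. Its log2 fold change was 0.37 (SE 0.15), but 0.12 against EV_Ctrl 2 alone and -0.002 after GC correction. SAR1B and SEC24A lie head to head on chromosome 5 and overlap in their exons on opposite strands, and because the strand setting of the counting is not given, some reads could belong to either. SAR1A, the other GTPase, was at a mean of 129 ± 17.7 CPM with ERbeta, against 123 ± 7.01 CPM with EV_Ctrl (SD, n = 3 each).

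MIA3 (TANGO1), the exit-site receptor for large cargo such as collagen, was at 129.6, 127 and 147 CPM in ERbeta, against 64.7, 127 and 67.0 CPM in EV_Ctrl. EV_Ctrl 2 stood just under the lowest ERbeta library, and the other controls were far below. A log2 fold change of 0.63 (SE 0.26) with all libraries was 1.04 without EV_Ctrl 2, 0.09 against EV_Ctrl 2 alone and 0.44 after GC correction. MIA2, its relative, was counted at only 1.39 to 3.39 CPM in the 6 libraries. TFG, which organises exit sites, was at a mean of 106 ± 2.37 CPM with ERbeta, against 96.4 ± 4.86 CPM with EV_Ctrl (SD, n = 3 each), and its log2 fold change of 0.14 turned to -0.40 after GC correction.

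Other subunits of the coat, its exchange factor and its scaffold overlapped between the groups. SEC23A and SEC23B, paralogous subunits of the coat, had log2 fold changes of 0.35 (SE 0.17) and 0.11 (SE 0.10). That of SEC23A was 0.13 against EV_Ctrl 2 alone and -0.14 after GC correction. SEC31A and SEC13, which form the cage, had 0.24 (SE 0.12) and -0.06 (SE 0.14). PREB (SEC12), the exchange factor that loads SAR1 with GTP, was at a mean of 81.7 ± 3.44 CPM with ERbeta, against 86.0 ± 7.37 CPM with EV_Ctrl, and SEC16A, the scaffold of exit sites, at 227 ± 55.0 CPM with ERbeta, against 257 ± 55.1 CPM with EV_Ctrl (SD, n = 3 each).

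**Figure D2:**
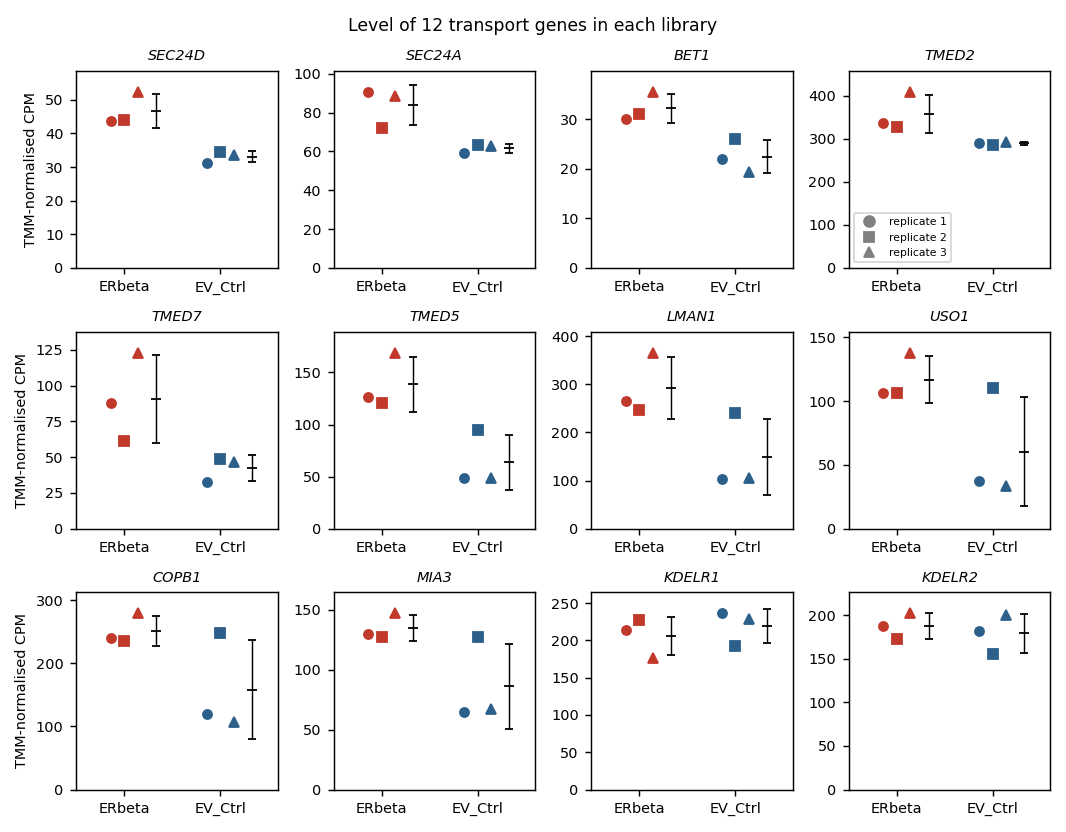
TMM-normalised CPM of 12 genes in each library (circle, square and triangle for replicates 1, 2 and 3), with the mean and SD of each group beside the points. In SEC24D, SEC24A, BET1, TMED2 and TMED7 all 3 EV_Ctrl libraries lie below ERbeta, in USO1, COPB1 and MIA3 EV_Ctrl 2 lies at the level of ERbeta replicates 1 and 2, and KDELR1 and KDELR2 overlap.

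Among the cargo receptors TMED5, TMED7 and LMAN1 had the highest log2 fold changes with all 6 libraries. Of the 15 receptors and p24 proteins, 10 had a positive log2 fold change (6 with library size only), and the median was 0.03. TMED7, TMED5, LMAN1 and TMED2 did not overlap between the groups and were higher in ERbeta, while TMED4, ERGIC1 and TMED3 did not overlap and were lower. These are 4 and 3 of 15, against 10.2% and 8.48% of all genes. None of the 15 passed edgeR's test.

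The p24 proteins are membrane receptors that load cargo such as GPI-anchored proteins into COPII vesicles. TMED7 was at 87.8, 61.4 and 123 CPM in ERbeta, against 32.3, 48.7 and 46.8 CPM in EV_Ctrl. The ERbeta libraries were spread widely, and the lowest lay above every control. The log2 fold change was 1.09 (SE 0.27, edgeR adjusted p = 0.397), 0.90 against EV_Ctrl 2 alone and 0.59 after GC correction. A readthrough transcript, TMED7-TICAM2, overlaps TMED7 on the same strand and had 4, 4 and 7 reads in ERbeta, against 0, 4 and 2 in EV_Ctrl.

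TMED5 was at 126, 121 and 169 CPM in ERbeta, against 48.2, 94.3 and 49.0 CPM in EV_Ctrl. EV_Ctrl 2 stood apart from the other controls but below ERbeta. The log2 fold change was 1.11 (SE 0.28), 0.56 against EV_Ctrl 2 alone and 0.68 after GC correction. TMED2 was at 337, 327 and 409 CPM in ERbeta, against 289, 286 and 293 CPM in EV_Ctrl. The controls were nearly equal, the groups did not overlap, and the log2 fold change of 0.31 (SE 0.11) was 0.33 against EV_Ctrl 2 alone and 0.00 after GC correction. TMED10, the partner of TMED2 in p24 complexes, was at a mean of 172 ± 16.8 CPM with ERbeta, against 153 ± 7.20 CPM with EV_Ctrl (SD, n = 3 each), with overlap.

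TMED1, TMED3, TMED4 and TMED9 had log2 fold changes that ran from -0.21 to 0.02. TMED4 was at 129.9, 133 and 123 CPM in ERbeta, against 154, 139 and 154 CPM in EV_Ctrl. Every ERbeta library lay below every control, and the log2 fold change was -0.21 (SE 0.10, edgeR adjusted p = 0.401) and -0.12 after GC correction.

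LMAN1 (ERGIC-53) and MCFD2 form the receptor that exports the coagulation factors V and VIII. LMAN1 was at 265, 247 and 366 CPM in ERbeta, against 103, 241 and 105 CPM in EV_Ctrl. EV_Ctrl 2 lay just under the lowest ERbeta library, and the log2 fold change of 0.96 (SE 0.34) was 1.49 without EV_Ctrl 2, 0.29 against EV_Ctrl 2 alone and 0.67 after GC correction. MCFD2, its partner, was at a mean of 185 ± 20.5 CPM with ERbeta, against 176 ± 12.9 CPM with EV_Ctrl (SD, n = 3 each), and the groups overlapped. LMAN2 (VIP36), a related lectin, was at a mean of 174 ± 3.14 CPM with ERbeta, against 171 ± 9.04 CPM with EV_Ctrl.

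Of the ERGIC proteins, which cycle between the ER and the Golgi, only ERGIC2 had a large log2 fold change, 0.77 (SE 0.37). It was at 62.1, 62.8 and 69.5 CPM in ERbeta, against 28.1, 63.6 and 20.6 CPM in EV_Ctrl. EV_Ctrl 2 lay within the range of ERbeta, and against it alone the log2 fold change was 0.03, and 0.26 after GC correction. ERGIC1 was at a mean of 115 ± 4.16 CPM with ERbeta, against 128 ± 5.83 CPM with EV_Ctrl, and ERGIC3 at 160.5 ± 2.29 CPM with ERbeta, against 166 ± 15.8 CPM with EV_Ctrl (SD, n = 3 each). SURF4, a receptor for many soluble cargoes and per length the most abundant member, was at 104 CPM per kilobase of exon in both groups, with a log2 fold change of 0.00 (SE 0.10).

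**Figure D3:**
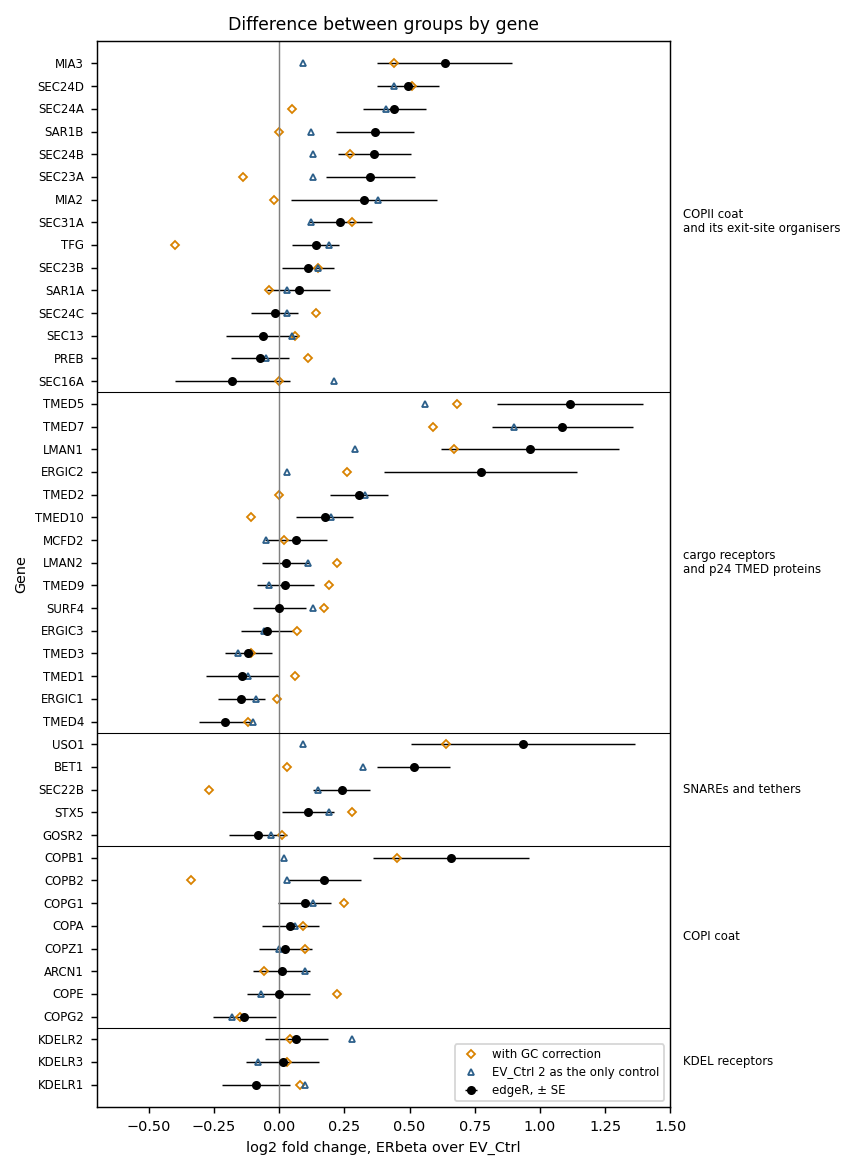
Log2 fold change of ERbeta over EV_Ctrl for each of the 46 genes with its standard error (black), after GC correction (open diamonds) and with EV_Ctrl 2 as the only control (open triangles). SEC24D keeps its value in all 3, while USO1, COPB1, MIA3, LMAN1 and ERGIC2 come close to 0 or below 0.30 against EV_Ctrl 2, and TFG, SEC23A, SEC22B and COPB2 fall below 0 with the correction.

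Of the SNAREs and tethers, BET1 and SEC22B did not overlap between the groups, both higher in ERbeta (2 of 5, against 10.2% of all genes). BET1, STX5, GOSR2 and SEC22B are the SNAREs that pair for fusion of ER-derived vesicles. BET1 was at 30.0, 31.1 and 35.5 CPM in ERbeta, against 22.0, 25.9 and 19.3 CPM in EV_Ctrl. The highest control lay below the lowest ERbeta library, and the log2 fold change was 0.52 (SE 0.14), 0.32 against EV_Ctrl 2 alone and 0.03 after GC correction. SEC22B was at 101, 98.9 and 113 CPM in ERbeta, against 85.5, 94.7 and 85.4 CPM in EV_Ctrl. The gap between the groups was narrow, and the log2 fold change of 0.24 (SE 0.11) turned to -0.27 after GC correction. STX5 was at 70.0, 70.9 and 68.5 CPM in ERbeta, against 68.6, 61.4 and 64.3 CPM in EV_Ctrl, with the highest control just above the lowest ERbeta library. GOSR2 was at a mean of 34.0 ± 0.676 CPM with ERbeta, against 36.0 ± 2.95 CPM with EV_Ctrl (SD, n = 3 each).

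USO1 (p115), the tether that holds vesicles near the Golgi before fusion, had the widest split of the controls among the 46 members, with EV_Ctrl 2 at 2.93 times the higher of the others. It was at 106, 106 and 138 CPM in ERbeta, against 37.5, 110 and 33.8 CPM in EV_Ctrl. EV_Ctrl 2 lay within the ERbeta range and the other controls far below it. The log2 fold change was 0.94 (SE 0.43, edgeR adjusted p = 0.401), 1.72 without EV_Ctrl 2 (adjusted p = 4.06e-05), 0.09 against EV_Ctrl 2 alone and 0.64 after GC correction.

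In the COPI coat COPB1 had the highest log2 fold change. Of the 8 subunits 6 had a positive log2 fold change (2 with library size only). The median was 0.03 (0.10 after GC correction, against 0.05 over all genes). In 0 of 8 were the groups free of overlap, against 10.2% of all genes higher and 8.48% lower. With library size only 0 were higher, against 7.65% of all genes, and COPG2 was lower, against 13.3%. COPB1, the β subunit, was at 239.8, 235 and 279 CPM in ERbeta, against 120.3, 248 and 107 CPM in EV_Ctrl. EV_Ctrl 2 again lay within the ERbeta range, and the log2 fold change of 0.66 (SE 0.30) was 0.02 against that library alone and 0.45 after GC correction. COPB2, the β′ subunit, was at 181, 190.1 and 240.2 CPM in ERbeta, against 172, 200.2 and 169.9 CPM in EV_Ctrl. The groups overlapped, and its log2 fold change of 0.17 (SE 0.14) turned to -0.34 after GC correction. COPG1 was at 129.6, 123 and 145 CPM in ERbeta, against 122, 121 and 129 CPM in EV_Ctrl, and COPG2, its paralog, at 86.1, 81.5 and 103 CPM in ERbeta, against 102, 103 and 92.8 CPM in EV_Ctrl. Both pairs of groups overlapped, with log2 fold changes of 0.10 (SE 0.10) and -0.13 (SE 0.12). COPA, COPE, COPZ1 and ARCN1, the α, ε, ζ and δ subunits, lay between -0.002 and 0.04 in log2 fold change, each with an SE of 0.10 to 0.12. COPB1 was the only subunit of the 8 with EV_Ctrl 2 over 1.5 times the higher of the other controls, as in 9.89% of all genes.

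The KDEL receptors differed between the groups by less than the spread between libraries. KDELR1 was at 214, 227 and 177 CPM in ERbeta, against 236, 193 and 228 CPM in EV_Ctrl. KDELR2 was at 188, 173 and 202 CPM in ERbeta, against 182, 155 and 200.2 CPM in EV_Ctrl. KDELR3 was at 13.7, 16.9 and 17.8 CPM in ERbeta, against 14.8, 17.1 and 15.8 CPM in EV_Ctrl. In all 3 genes the groups overlapped, and the log2 fold changes of -0.09 (SE 0.13), 0.07 (SE 0.12) and 0.01 (SE 0.14) each changed sign under at least 1 other setting. Per kilobase of exon, KDELR1, KDELR2 and KDELR3 were at mean levels of 91.5, 47.0 and 8.36 CPM in ERbeta, against 97.3, 44.9 and 8.24 CPM in EV_Ctrl, so the order of the levels was the same in both groups. KDELR2 shares 376 bases of exon with DAGLB, which had 376 to 543 reads in each ERbeta library, against 231 to 759 in the controls.

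HSPA5 and HSP90B1, soluble proteins that these receptors retrieve, gave other values. Proteins with a KDEL-like tail were not surveyed as a class. HSPA5 (BiP), a chaperone with a KDEL tail, was at 869.9, 877 and 888 CPM in ERbeta, against 529.9, 536 and 501 CPM in EV_Ctrl. All 3 controls lay far below ERbeta, including EV_Ctrl 2. Its log2 fold change was 0.75 (SE 0.08) with an edgeR adjusted p of 0.13. After GC correction HSPA5 passed edgeR's test, with 0.79 and an adjusted p of 0.0333. Its adjusted p was 1.96e-09 in DESeq2, 0.118 in limma-voom and 3.59e-21 in the authors' deposited table. In edgeR without EV_Ctrl 2 it was 0.000665. HSP90B1 (GRP94), also KDEL-tailed, was at 1476, 1534 and 1555 CPM in ERbeta, against 714, 1208 and 639.9 CPM in EV_Ctrl. The groups did not overlap, but EV_Ctrl 2 stood well above the other controls. Its log2 fold change of 0.83 was 0.34 against EV_Ctrl 2 alone and 0.64 after GC correction. The adjusted p of HSP90B1 was 0.397 in edgeR, 0.0991 in DESeq2 and 0.0147 in the authors' deposited table. No test compared the ligands with the receptors.

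A split of the controls, with EV_Ctrl 2 high, recurred in 6 members. EV_Ctrl 2 was more than 1.5 times the higher of EV_Ctrl 1 and 3 in COPB1, ERGIC2, LMAN1, MIA3, TMED5 and USO1, or 13.0% of members, against 9.89% of all genes. Counted by library, EV_Ctrl 1, 2 and 3 lay below the whole ERbeta range in 22, 19 and 25 of the 46 members (47.8%, 41.3% and 54.3%). For all genes the shares were 34.6%, 19.8% and 34.3%. The same controls lay above that range in 11, 7 and 6 members (23.9%, 15.2% and 13.0%), against 32.5%, 19.7% and 31.7% of all genes. Without EV_Ctrl 2, edgeR called 11 members higher (23.9%), against 13.5% of all genes, and 0 lower, against 0.775%. The groups of the remaining libraries did not overlap in 20 members higher (43.5%, against 26.3% of all genes) and 5 lower (10.9%, against 19.1%). The 11 called were BET1, COPB1, ERGIC2, LMAN1, MIA3, SAR1B, SEC24B, SEC24D, TMED5, TMED7 and USO1. With EV_Ctrl 2 as the only control, edgeR called 0 members and 0.0% of all genes, and 3 members, SEC24D, TMED5 and TMED7, had an unadjusted p under 0.05, all higher (6.52%, against 2.25% of all genes). The groups then did not overlap in 19 members higher in ERbeta (41.3%, against 20.4% of all genes) and in 6 lower (13.0%, against 19.4%).

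Other tests called TMED5, TMED7 or SEC24D. DESeq2 called TMED5 and TMED7 higher in ERbeta, each with an adjusted p of 0.039, which is 2 of 46 members (4.35%) against 0.432% of all genes, and 0 members lower, against 0.00617%. Limma-voom called 0 members and 0.00616% of all genes higher. In the authors' deposited table, of 45 members with an adjusted p, 3 passed the threshold (6.67%), all higher, against 3.35% of the genes in it. They were SEC24D with an adjusted p of 0.00022, TMED7 with 0.0164 and TMED5 with 0.0442 in the authors' deposited table.

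GC content moved with the differences. Across the 46 genes the log2 fold change and the GC content of the longest transcript had a Pearson correlation of -0.65 and a Spearman correlation of -0.74, and across all 16091 genes with a value -0.55 and -0.61. These are descriptions across genes, which share the 6 libraries and are not independent. All 13 members under 40% GC had a positive log2 fold change, as did 92.2% of all genes in that class. Their median was 0.44 and that of all such genes 0.47, which became 0.03 and 0.04 after correction. The 12 members over 50% GC had a median of -0.01, and of 0.16 after correction. For all genes over 50% GC these were -0.12 and 0.06. Over all 16091 genes the median after correction was 0.05, with 9604 above 0. What part GC content or the split of the controls has in the differences was not tested beyond these values.

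**Figure D4:**
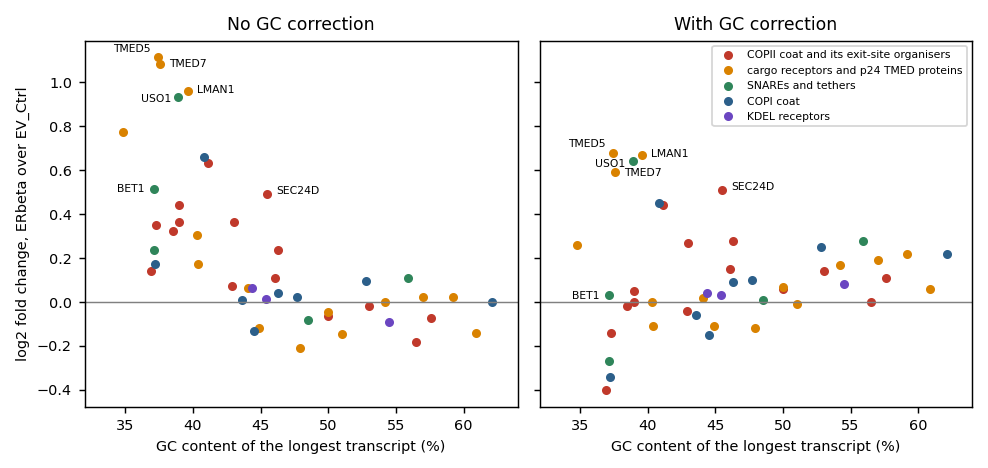
Log2 fold change of ERbeta over EV_Ctrl against the GC content of the longest transcript of a gene, for the 46 genes coloured by class, without (left) and with (right) GC correction. Without correction all 13 genes under 40% GC lie above 0. With it TMED5, LMAN1, USO1, TMED7 and SEC24D lie over 0.50, all but SEC24D lower than without it, and BET1 falls to 0.03.

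After GC correction edgeR called 0 members and 0.137% of all genes higher. The groups did not overlap in 11 members higher in ERbeta (23.9%, against 12.2% of all genes). They did not overlap in 2 lower (4.35%, against 4.78%), COPB2 and TMED4. Only 4 of the 11 higher, LMAN1, MIA3, SEC24D and TMED5, were also among the 11 without correction. With the correction and without EV_Ctrl 2 the groups did not overlap in 19 members higher (41.3%, against 31.7% of all genes). They did not overlap in 7 lower (15.2%, against 12.1%). There edgeR called 9 members higher (19.6%, against 9.13% of all genes) and 3 lower (6.52%, against 2.2%). The 3 lower were TFG (-0.58), COPB2 (-0.44) and SEC22B (-0.40), which were at 0.12 to 0.30 in the same libraries with no correction. Of the 11 members called without EV_Ctrl 2, 8 were called with the correction as well, among them SEC24D (0.57, adjusted p = 0.00571), TMED5 (0.84, adjusted p = 0.000265) and USO1 (1.17, adjusted p = 3.32e-05).

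The 8 members with a UPRE lay on both sides of 0. SEC24A, COPB1, SEC23A, COPB2, STX5, COPA, KDELR3 and SEC16A had log2 fold changes of 0.44, 0.66, 0.35, 0.17, 0.11, 0.04, 0.01 and -0.18. Of these only SEC24A did not overlap between the groups, higher in ERbeta (1 of 8, against 10.2% of all genes). In the 31 members with a window but no UPRE, 9 did not overlap and were higher, and 1 was lower. After GC correction SEC24A overlapped. STX5 then did not overlap and was higher (1 of 8, against 12.2% of all genes), and COPB2 was lower (1 of 8, against 4.78%). For the 31 without a UPRE these counts were then 9 and 0. The median log2 fold change of the 8 was 0.14, and 0.04 after GC correction, against 0.07 and 0.08 in the 31. TMED5, TMED7, LMAN1, MIA3 and BET1 were among those 31, and SEC24D and USO1 had no window.

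Other genes of the same route, such as tethers, Rab and ARF GTPases and further receptors, were listed by role. Of 74 listed genes 70 were tested, and 38 had a positive log2 fold change (26 with library size only). The median of the 70 was 0.03, and 0 passed edgeR's test. Its unadjusted p was under 0.05 in 11 higher, against 9.54% of all genes, and 1 lower, against 2.88%. In the authors' deposited table ERP44, CUL3 and RINT1 had adjusted p-values of 0.0237, 0.034 and 0.0152, all higher in ERbeta. That table called 3.35% of its genes higher. Libraries of both groups were fully apart in 12, higher in ERbeta, against 10.2% of all genes, and in 5, lower, against 8.48%. With library size only these were 9 and 10, against 7.65% and 13.3% of all genes. ERP44, a chaperone that returns from the Golgi by the KDEL receptors, was at 88.4, 93.9 and 90.7 CPM in ERbeta, against 50.6, 78.9 and 54.2 CPM in EV_Ctrl. SCFD1 (SLY1), the SNARE regulator that binds STX5, was at 68.8, 69.0 and 73.3 CPM in ERbeta, against 22.4, 62.8 and 19.8 CPM in EV_Ctrl. In both genes EV_Ctrl 2 lay under ERbeta and the other controls far below it. The log2 fold change of ERP44 was 0.57, and 0.21 both against EV_Ctrl 2 alone and after GC correction, and that of SCFD1 was 0.99, 0.17 against EV_Ctrl 2 alone and 0.76 after GC correction. CUL3, whose ubiquitin ligase acts on SEC31, RAB2A and ARF4, small GTPases, had log2 fold changes of 0.38 (SE 0.12), 0.36 (SE 0.12) and 0.23 (SE 0.13), which all turned to between -0.09 and -0.01 after GC correction. TRAPPC5, a TRAPP tether subunit of low level, was at 1.67, 1.89 and 1.28 CPM in ERbeta, against 2.63, 2.49 and 3.05 CPM in EV_Ctrl, with every ERbeta library below the controls. GOLGB1 (giantin), which was picked for its values, was at 149.5, 175 and 192 CPM in ERbeta, against 12.6, 214 and 15.8 CPM in EV_Ctrl. EV_Ctrl 2 was above every ERbeta library there, and the other controls were far below.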

How the data were processed

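The deposited table holds the authors' raw counts of reads per gene in 6 libraries, made per the submitters' processing notes with TopHat2, featureCounts and DESeq2 on hg38. For versions, annotation and strand setting, the sources used here give none; the library kit is stranded, per the labels' protocols. The authors' deposited comparison gives a mean signal (normalised count), a log2 fold change, its error and test statistic as scores, and p-values, per the file headers. It was only set beside the values computed here.

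The members and gene lists were chosen with earlier results of these data known. Genes were kept with filterByExpr (minimum count 10, minimum total 15; 99.8% of reads), normalised by TMM and tested with edgeR 4.0.16 (R 4.3.3) on group alone, over all 16243 genes (threshold 0.05). SEs come from the F statistic. The biological coefficient of variation was 17.5%. Alternatives were DESeq2 1.42.0, limma 3.58.1 (voom), other scalings and filters, a replicate block, GC correction (loess of log2 CPM on GC content, span 0.5, per library, as an offset, for 16091 genes) and leaving out libraries. A fit with EV_Ctrl 2 as the only control takes its spread from the ERbeta libraries. The steps were tested on simulated data.

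Values per library are given for the 4 members of each class with the smallest unadjusted p. They are also given for members without overlap and a log2 fold change of at least 0.3 in size. Of the other ER-Golgi genes, 1 per sub-list was picked by the smallest unadjusted p. For CUL3, RAB2A and ARF4 among these only log2 fold changes are given. TMED4, ERGIC2, other members and GOLGB1 were named after their values were seen. RINT1 was named for its adjusted p in the authors' deposited table. Whether replicates were separate cultures is not stated in the labels; the spread behind each p-value may thus be technical. Chi-square per degree of freedom between replicates was 4.74 to 38.7, so no library was a duplicate. Same-numbered libraries had correlations of 0.297, -0.198 and -0.182 in their deviations, which did not show pairing by number. With 3 libraries a group these correlations depend on each other, so they cannot exclude pairing. Levels per kilobase use the union of GENCODE 29 exons; GC content and coordinates are from the same annotation on GRCh38. Promoter windows are RefSeq's. A blood cell marker is not reported here.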

Additional observations from a re-analysis of the deposited data

How the results depend on the processing

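With 3 libraries a group and EV_Ctrl 2 apart from the other controls, edgeR's count of members past the threshold was 0 with all 6 libraries and in each of 5 fits without 1 library, and 11 without EV_Ctrl 2. For all genes the count ran from 0 to 2324 over the 6 fits without 1 library, for members from 0 to 11, and for the other ER-Golgi genes from 0 to 12. With no filter on low counts it was 51 for all genes and 2 for members (TMED5 and TMED7), with DESeq2's test 71 and 2, with limma-voom 1 gene and with GC correction 22 genes. Without EV_Ctrl 2 and with GC correction it was 1826 for all genes, 12 for members and 8 for the other ER-Golgi genes. The 14 members whose groups did not overlap became 14 to 25 without 1 library, 25 without EV_Ctrl 1 and 3, and 26 without EV_Ctrl 2 and with GC correction, where fewer libraries overlap less by construction. The median log2 fold change over members was -0.012 with library size only. The replicate block alone gave 0 calls and changed no call among 36 named genes. Added to the GC correction it gave 0 calls and ended that of HSPA5 (adjusted p = 0.108, against 0.0333 with GC correction alone). Among the named genes directions turned as follows in log2 fold change. With GC correction SAR1B was at -0.002, SEC22B at -0.272, COPB2 at -0.338, KDELR1 at 0.079, CUL3 at -0.088, ARF4 at -0.006, RAB2A at -0.038, TFG at -0.397 and SEC23A at -0.145. Of the members that are not among the named genes, these turned with GC correction: SAR1A to -0.04, PREB to 0.11, SEC24C to 0.14, SEC13 to 0.06, MIA2 to -0.02, ERGIC3 to 0.07, TMED1 to 0.06, TMED10 to -0.11, GOSR2 to 0.01, COPE to 0.22 and ARCN1 to -0.06. With the replicate block as well the named genes were, in the order given, -0.002, -0.262, -0.331, 0.077, -0.087, -0.016, -0.033, -0.376 and -0.144. With GC correction and without EV_Ctrl 2 the named genes were -0.013, -0.399, -0.44, 0.067, -0.158, -0.143, -0.149, -0.584 and -0.208, and SEC24A was at -0.068, TMED2 at -0.105, BET1 at -0.047, KDELR2 at -0.047 and ERGIC1 at 0.031. With library size only COPG1 was at -0.001, KDELR2 at -0.035 and KDELR3 at -0.078. KDELR3 was at -0.001 with a minimum of 1 CPM and -0.005 with limma-voom. Without EV_Ctrl 1 and 3 KDELR1 was at 0.096, KDELR3 at -0.082, GOLGB1 at -0.31 and SEC16A at 0.209. Without 1 library KDELR1 ran from -0.16 to 0.01, KDELR2 from -0.022 to 0.15, KDELR3 from -0.061 to 0.11 and SEC16A from -0.35 to 0.002. Apart from what fewer libraries bring by construction, the cause of these changes was not tested. Counts of MIA2 and TRAPPC5, at a few CPM, are low, which limits their precision.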
